A study of Mus musculus with 2 samples.

Results

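The genes described here are 35 genes of glycolysis, pyruvate handling and the pentose phosphate pathway, out of 22686 genes listed in either of 2 single-cell RNA libraries of mouse spleen T cells. They were listed by name as columns present in both deposited tables, with earlier results of these data known, and the rule itself uses no measured value. They were divided into 9 arms: glucose import, the hexose phase, control of phosphofructokinase, the triose phase, lactate dehydrogenase, lactate transport, pyruvate entry and oxidation, the pyruvate dehydrogenase kinases, and the pentose phosphate pathway. One library came from LatY136F CD45-KO mice, which carry the LatY136F mutation and also lack CD45. Ptprc is the gene of CD45, a tyrosine phosphatase of the leukocyte surface. The other came from LatY136F mice, which carry the same Lat mutation with CD45. LAT is the adaptor that passes T cell receptor signals to phospholipase C, and the mutation, which both groups share, gives these mice a T cell lymphoproliferative disorder. Mice of both groups were 8 to 9 weeks old. CD3+ CD5+ spleen cells were sorted and captured on the BD Rhapsody system, in which transcripts are tagged with unique molecular identifiers (UMIs) so that molecules are counted. There was 1 library per genotype, and the sources used here do not say how many mice went into each. No test between genotypes was therefore possible, and each interval below is a 95% interval that covers counting error only. "Higher" and "lower" say that such an interval lay on 1 side of 0, unless a value is given without that word.

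Glycolysis splits glucose into pyruvate in the cytosol. Lactate dehydrogenase turns pyruvate into lactate, which leaves through monocarboxylate transporters, while pyruvate dehydrogenase carries it into mitochondrial oxidation, and the pentose phosphate pathway draws on the hexose intermediates to make NADPH and ribose. Resting T cells make little use of glycolysis, and T cells that are activated and divide are known to raise it, with MYC and hypoxia-inducible factor 1 among the factors that act on its genes.

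Promoter sequences are shown as examples for 3 members of the triose phase and lactate arms. Their transcripts were higher in cycling cells of both libraries, as were those of other members described further on. Each sequence is the 250 bases before a RefSeq transcription start on the GRCm38.p6 build. It is written on the strand of the gene, which is the + strand for all 3. Ldha lies at chr7:46845554-46845803 and is the more upstream of 2 RefSeq windows for this gene. Pgk1 lies at chrX:106186850-106187099 and Pgam1 at chr19:41911621-41911870. None of the 3 windows overlapped an exon of the GENCODE M21 annotation, and the Ldha window is inside the annotated Ldha gene. Capitals mark ACGTG or GCGTG on either strand (a match on the other strand reads CACGT or CACGC), the core letters of a hypoxia response element.
Ldha: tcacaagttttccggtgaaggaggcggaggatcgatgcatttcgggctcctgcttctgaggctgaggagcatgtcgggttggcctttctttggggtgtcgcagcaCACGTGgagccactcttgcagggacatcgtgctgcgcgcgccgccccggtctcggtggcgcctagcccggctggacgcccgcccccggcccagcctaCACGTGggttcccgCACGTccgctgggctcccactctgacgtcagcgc
Pgk1: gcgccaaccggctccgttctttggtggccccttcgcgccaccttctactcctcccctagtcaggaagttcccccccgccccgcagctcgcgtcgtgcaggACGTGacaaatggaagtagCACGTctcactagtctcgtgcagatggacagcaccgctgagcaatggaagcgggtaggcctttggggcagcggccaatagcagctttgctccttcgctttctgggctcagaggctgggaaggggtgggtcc
Pgam1: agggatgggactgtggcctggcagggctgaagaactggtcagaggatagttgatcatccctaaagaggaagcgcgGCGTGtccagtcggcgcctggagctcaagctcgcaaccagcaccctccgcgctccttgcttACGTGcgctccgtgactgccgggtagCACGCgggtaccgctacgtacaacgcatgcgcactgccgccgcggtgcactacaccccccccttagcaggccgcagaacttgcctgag
In the Ldha window 2 of the capital stretches spell CACGTG, the E-box letters, in which ACGTG is read on both strands at once. At least 1 ACGTG or GCGTG was found in 38 of 49 member windows (77.6%). The table held windows for 34 members, and Slc2a3 had no entry. Windows of Dlat, Dld, Gpi1 and Tpi1 held no match, and these genes too were higher in cycling cells of both libraries. A link between the matches and the cycling levels was not tested. The share was 38.6% among all 32851 RefSeq windows of that length and 58.5% among the 1941 windows of genes that averaged at least 100 CPM (UMIs scaled to an equal library total) in these libraries. CACGTG was found in 4 member windows (8.16%), against 6.02% of all windows and 9.48% of those of the more abundant genes. GGGCGG, a letter string of GC boxes, was found in 59.2% of member windows, against 32.7% and 60.4%. These are matches of letters and not sites of binding.

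The CD45-KO library held 12845 cells with 29268453 UMIs and the LatY136F library 13775 cells with 35300371 UMIs, with medians of 1991 and 2153 UMIs per cell. After filters, 12754 and 13718 cells were kept, and 223 cell barcodes occurred in both libraries. Ptprc stood at 1178 CPM in the CD45-KO library and 1759 CPM in the LatY136F library. The sources used here do not name the deleted part of the gene, and this value therefore does not check the label. Mitochondrial genes took 9.47% of UMIs in the CD45-KO library and 8.59% in the LatY136F library, and ribosomal protein genes 10.7% and 9.34%. The 8 T cell markers summed to 7211 and 8801 CPM. Markers of B cells, of myeloid cells and of red cells each summed to at most 4.24 CPM in either library, after 80 and 29 cells with at least 3 UMIs of these markers were left out.

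Cells were put into states by their transcripts, in the order given. Cycling cells had at least 4 of 16 cell cycle genes, and there were 280 in the CD45-KO library and 1003 in the LatY136F library. Tfh-like cells had at least 2 of Cxcr5, Bcl6, Il21, Sostdc1, Pdcd1 and Tox2, and there were 279 and 194. Gzmb-positive cells had at least 1 UMI of Gzmb, the granzyme B gene, and there were 310 and 1497. Cells of 1 further gate were set apart and are not reported here, and the remaining T cells numbered 10126 and 10315. The gates were checked on markers they did not use. Of 10 other cell cycle genes, 9 were at least 1.5-fold above the remaining cells in the cycling cells of both libraries, 8 and 7 of 9 other Tfh markers were so in the Tfh-like cells, and 7 and 6 of 7 cytotoxic markers in the Gzmb-positive cells. The gates overlapped: 39 of 318 CD45-KO cells and 89 of 283 LatY136F cells that passed the Tfh gate were counted as cycling. Of the 9 Tfh markers 7 and 5 were at least 1.5-fold higher in cycling than in remaining cells too, with a lower sum, 1419 against 1678 CPM in the CD45-KO library and 1546 against 2471 CPM in the LatY136F library. Of the 10 cell cycle genes 6 and 3 were so in Tfh-like cells, again with a lower sum, 687 against 968 CPM and 776 against 1048 CPM. These lower sums were set by a few abundant genes and do not offset the counts of markers. In cycling cells Maf had 905 against 1406 CPM in the CD45-KO library and 1127 against 2171 CPM in the LatY136F library. In Tfh-like cells Hmgb2 had 293 against 429 CPM and 316 against 462 CPM. Ccnd3 had 163 against 334 CPM and 199 against 346 CPM there. The part of this overlap of markers in the likeness of cycling and Tfh-like cells was not tested. A gate that asks for UMIs takes deeper cells: the median depth of cycling cells was 5790.5 and 5405 UMIs and that of Tfh-like cells 3209 and 3146.5, against 1912 and 2019 in the remaining cells. At an equal depth of 1000 UMIs, cycling cells made up 1.41% of CD45-KO cells and 4.55% of LatY136F cells, and Gzmb-positive cells 1.45% and 7.27%.

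Over all T cells most members stood at a somewhat lower level in the CD45-KO library than in the LatY136F library. On summed counts the shift was largest in the sugar-splitting and lactate arms. It was smaller in the pentose phosphate arm, at a log2 ratio of -0.17 (-0.21 to -0.13), and in glucose import, at -0.12 (-0.18 to -0.05). The arm of pyruvate oxidation did not share it, though 18 of 20 tricarboxylic acid cycle genes, described further on, also had a ratio below 0. Summed over the 35 members, the level was 3659 CPM in CD45-KO cells and 4408 CPM in LatY136F cells, a log2 ratio of -0.27 (-0.28 to -0.26). All 35 members had at least 20 UMIs in both libraries together, which was the filter. The log2 ratio was below 0 for 28 of the 35, against 46.1% of the 12825 genes past that filter, and the median was -0.19, against 0.03 for all those genes. Of the 12 members with at least 100 CPM in 1 library, 11 had an interval entirely below 0, and Pdha1 was the exception, against 43.5% of all 2035 such genes. The shifts were small: 4 members were lower by at least 1.5-fold, against 8.7% of genes, and 1 was higher by that much, against 8.92%. None of those 5 had more than 5.32 CPM in either library.

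**Figure D1:**
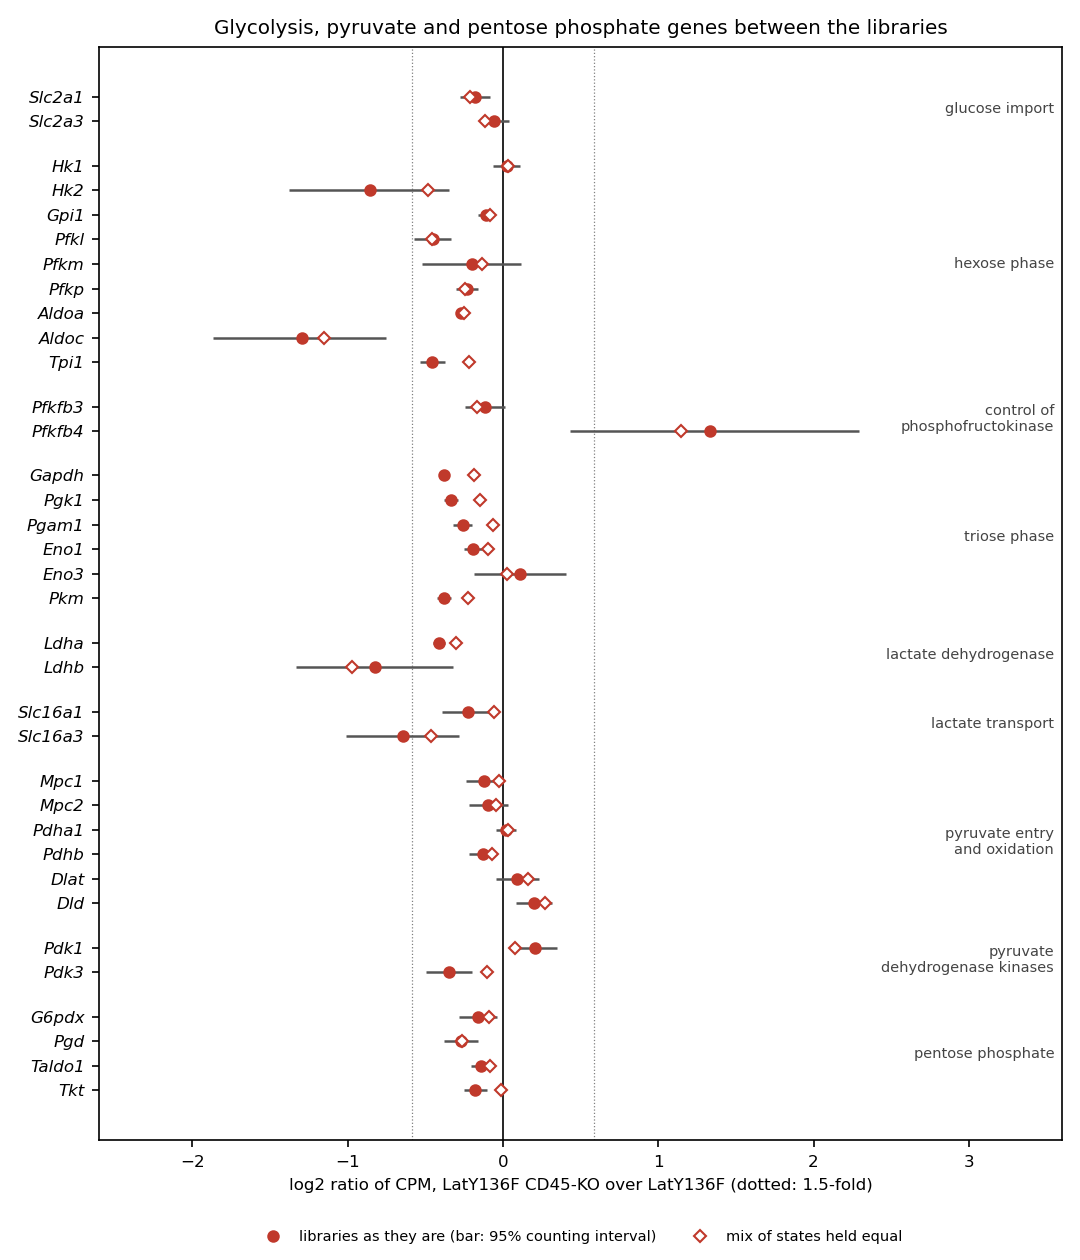
Log2 ratio of CPM, LatY136F CD45-KO over LatY136F, for each of the 35 members, grouped by arm. Filled points are all T cells with their 95% counting interval, open diamonds are the same ratio with the mix of cell states held equal, and dotted lines mark 1.5-fold. Most filled points of the hexose, triose and lactate arms lie left of 0, and the open diamonds of Tpi1, Gapdh, Pgk1 and Pgam1 lie nearer to 0.

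Glucose enters T cells through GLUT1, encoded by Slc2a1, and GLUT3, encoded by Slc2a3. Slc2a1 had 52.3 CPM in CD45-KO cells and 59.3 CPM in LatY136F cells, a log2 ratio of -0.18 (-0.28 to -0.08). Slc2a3 had 58.4 and 60.7 CPM, and its ratio of -0.06 had an interval that included 0 (-0.15 to 0.04). The summed transporters differed little, at 110.7 CPM in CD45-KO cells and 120.03 CPM in LatY136F cells.

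In the hexose phase, the hexokinases trap glucose, glucose-6-phosphate isomerase (Gpi1) and phosphofructokinase (Pfkl, Pfkm and Pfkp) prepare it, and the aldolases and triosephosphate isomerase split it and bring the products to 1 form. Aldoa, the aldolase of most tissues, had 514 CPM in CD45-KO cells and 620.0 CPM in LatY136F cells, a log2 ratio of -0.27 (-0.30 to -0.24). Tpi1, triosephosphate isomerase, had 71.8 and 98.3 CPM, a ratio of -0.45 (-0.53 to -0.37). Pfkl, the liver type of phosphofructokinase, had 32.4 and 44.3 CPM, a ratio of -0.45 (-0.57 to -0.33), against -0.23 for the platelet type Pfkp and -0.11 for Gpi1. These 5 genes were thus lower in the CD45-KO library by amounts between 0.11 and 0.45 on the log2 scale. Hk1, the constitutive hexokinase, stood at 69.7 and 68.5 CPM with an interval that included 0. Hk2, the inducible hexokinase, had only 48 and 106 UMIs, and its ratio was -0.85 (-1.38 to -0.35). Aldoc, the brain type of aldolase, had 38 UMIs in CD45-KO cells and 114 in LatY136F cells, the lowest ratio of the 35 members at -1.29 (-1.86 to -0.75). Pfkm, the muscle type, had 143 and 201 UMIs and an interval that included 0.

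Pfkfb3 and Pfkfb4 encode the bifunctional enzymes that make and remove fructose 2,6-bisphosphate, the activator of phosphofructokinase. Pfkfb3 had 30.9 CPM in CD45-KO cells and 33.5 CPM in LatY136F cells, with an interval that included 0. Pfkfb4 had 33 UMIs in CD45-KO cells and 16 in LatY136F cells, and it was the member that was higher by more than 1.5-fold, at a log2 ratio of 1.33 (0.43 to 2.29).

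The triose phase had the largest summed level of the 9 arms, 1518 CPM in CD45-KO cells and 1925 CPM in LatY136F cells. Gapdh, glyceraldehyde-3-phosphate dehydrogenase, had 753 CPM in CD45-KO cells and 978 CPM in LatY136F cells, a log2 ratio of -0.38 (-0.40 to -0.35). Pkm, pyruvate kinase, had 243 and 317 CPM with a ratio of -0.38, and Pgk1, phosphoglycerate kinase, had 241 and 304 CPM with a ratio of -0.34. Pgam1, phosphoglycerate mutase, had 126 and 151 CPM with a ratio of -0.26. Eno1, enolase 1, had 149 and 170.0 CPM with a ratio of -0.19 (-0.25 to -0.14), and the muscle enolase gene Eno3 had 180 and 204 UMIs with an interval that included 0. Eno1 shares most of its transcript with Eno1b, 99.48% identical over 1736 bases, which the tables list apart with 2431 UMIs in CD45-KO cells and 4459 in LatY136F cells. How reads were split between the pair is uncertain, and the summed pair gave -0.35 (-0.39 to -0.30). Gapdh has many near-identical copies, and with the 4 that the tables list its ratio was -0.41, against -0.38 alone.

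Lactate dehydrogenase showed the largest shift of any arm on the summed counts, -0.41 (-0.45 to -0.38). Ldha, the subunit that favours lactate formation, had 319 CPM in CD45-KO cells and 424 CPM in LatY136F cells, a ratio of -0.41 (-0.45 to -0.37). Ldhb, the subunit of heart and other oxidative tissues, had 50 and 108 UMIs and a ratio of -0.82 (-1.33 to -0.32). Slc16a1 encodes the lactate carrier MCT1 and had 17.0 and 19.8 CPM, a ratio of -0.22 (-0.39 to -0.06), which was -0.06 with the mix of states held equal. Slc16a3 encodes MCT4, the carrier of strongly glycolytic cells, and had 98 and 187 UMIs, a ratio of -0.64 (-1.01 to -0.28).

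Pyruvate entry and oxidation did not share the shift: the 6 members summed to 327 CPM in CD45-KO cells and 329 CPM in LatY136F cells, a ratio of -0.01 (-0.05 to 0.03). Mpc1 and Mpc2, the subunits of the mitochondrial pyruvate carrier, had ratios of -0.12 and -0.09, both with intervals that included 0. Pdha1 and Pdhb encode the first enzyme of pyruvate dehydrogenase. Pdha1 had 130.5 and 129 CPM with a ratio of 0.02, and Pdhb had 62.1 and 67.9 CPM with a ratio of -0.13 (-0.22 to -0.04). Dlat, the acetyltransferase, had a ratio of 0.09 with an interval that included 0. Dld, the dehydrogenase that pyruvate dehydrogenase shares with other complexes, was higher in the CD45-KO library, with 40.1 CPM against 34.9 CPM in LatY136F cells and a ratio of 0.20 (0.08 to 0.32).

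The pyruvate dehydrogenase kinases, which switch that complex off, had ratios of opposite sign. Pdk1 had 28.0 CPM in CD45-KO cells and 24.2 CPM in LatY136F cells, a ratio of 0.21 (0.07 to 0.35). Pdk3 had 21.1 and 26.9 CPM, a ratio of -0.35 (-0.50 to -0.20). Pdk1 made up 57.0% (54.4 to 59.6) of the UMIs of the pair in CD45-KO cells and 47.4% (45.1 to 49.8) in LatY136F cells. With the mix of states held equal, as described below, the ratios were 0.08 for Pdk1 and -0.10 for Pdk3, and inside the remaining cells the interval of Pdk1 included 0.

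All 4 pentose phosphate members were lower in the CD45-KO library. The oxidative enzymes G6pdx, glucose-6-phosphate dehydrogenase, and Pgd, 6-phosphogluconate dehydrogenase, had ratios of -0.16 and -0.27. The non-oxidative enzymes Taldo1, transaldolase, and Tkt, transketolase, had ratios of -0.14 and -0.18. The arm summed to 295 CPM in CD45-KO cells and 333 CPM in LatY136F cells.

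The libraries differed in their share of cycling cells, and members differed between cycling and other cells, so the ratio was also computed with the mix of states held equal, the cells set apart counted as a state of their own. Each state was then given the same share of cells in both libraries, the mean of the 2. The median over members was then -0.10, against -0.19 with the libraries as they were. Tpi1 stood at -0.22, against -0.45. Gapdh stood at -0.19, against -0.38, and Pgk1 at -0.15, against -0.34. Tkt stood at -0.01, against -0.18, and Pgam1 at -0.07, against -0.26. Ldha kept more of its difference, at -0.30, and Pfkl and Aldoa hardly changed, at -0.46 and -0.25. The count of members lower by at least 1.5-fold was 2 with the mix held equal and 4 without. Among all genes the share was 8.7% without, and no share is given here with the mix held equal. No change was therefore read from these counts.

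Inside each state the members were therefore compared gene by gene. Among the 12 members with at least 100 CPM, Ldha had a lower level in CD45-KO cells in all 4 states. It had 503 CPM in CD45-KO cells and 551 CPM in LatY136F cells among cycling cells, a ratio of -0.13 (-0.23 to -0.03). Among Tfh-like cells it had 319 and 423 CPM, a ratio of -0.41 (-0.65 to -0.17), and among Gzmb-positive cells 358 and 431 CPM, a ratio of -0.27. Among the remaining cells the ratio was -0.37 (-0.42 to -0.32). The Ldha difference was thus found in each of these states at different sizes, and whether the sizes differ between states was not tested.

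In 3 of the 4 states Pfkl was also lower in CD45-KO cells. It had 30.8 CPM in CD45-KO and 47.8 CPM in LatY136F cycling cells, a ratio of -0.64 (-1.06 to -0.23), and 50.03 and 88.9 CPM in Tfh-like cells, a ratio of -0.83 (-1.41 to -0.25). The ratio was -0.39 in the remaining cells. In Gzmb-positive cells its interval included 0, and there Pfkp was the lower one, with 79.7 CPM in CD45-KO cells and 129 CPM in LatY136F cells and a ratio of -0.70 (-1.09 to -0.32).

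Aldoa stood out among cycling cells, with 475 CPM in the CD45-KO library and 704 CPM in the LatY136F library, a ratio of -0.57 (-0.67 to -0.47). In Tfh-like cells its levels were 875 and 898 CPM with an interval that included 0, and in the remaining cells 512 and 593 CPM. Gapdh was lower in CD45-KO cells of 3 states, all except the Tfh-like cells, and by less in cycling cells, at -0.11 (-0.17 to -0.05), with ratios of -0.30 in Gzmb-positive and -0.26 in the remaining cells. Dld was higher in cycling CD45-KO cells, with 63.1 CPM against 46.4 CPM in LatY136F cells and a ratio of 0.44 (0.13 to 0.75). It was also higher in the remaining CD45-KO cells, with 39.1 against 33.2 CPM and a ratio of 0.23 (0.09 to 0.38). In Tfh-like and Gzmb-positive cells its intervals included 0. Over the members past the filter, the median ratio was -0.05 in cycling, -0.07 in Tfh-like, -0.15 in Gzmb-positive and -0.18 in the remaining cells, and the median of all genes lay between -0.01 and 0.03 in those states. The Tfh-like median ran from -0.36 to 0.01 under other filters and gates.

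The members with the highest and the lowest ratio of each arm were read in each state, and differences between states were not tested. In the hexose phase Pfkl was the lowest member in cycling and Tfh-like cells, Tpi1 in Gzmb-positive cells at -0.75 (-1.27 to -0.27), and Aldoc, on 22 and 61 UMIs, in the remaining cells. The highest was Aldoc in cycling cells, on 7 and 18 UMIs, and Hk1 in the other states, each with an interval that included 0. Next to Aldoc in cycling cells was Hk1, which was higher in CD45-KO cells there. It had 73.9 CPM in CD45-KO cells and 59.6 CPM in LatY136F cells, a ratio of 0.31 (0.02 to 0.59). In the triose phase Pkm was the lowest in Tfh-like cells at -0.25 and in the remaining cells at -0.28, Pgam1 in Gzmb-positive cells at -0.35, and Eno3 in cycling cells on 6 and 29 UMIs. No highest member of that phase had an interval above 0 in any of the 4 states. In pyruvate oxidation Mpc1 was the highest in Tfh-like cells, with 52.1 CPM in CD45-KO cells and 30.1 CPM in LatY136F cells and a ratio of 0.79 (0.02 to 1.62). No lowest member of that arm had an interval below 0. Among the pentose phosphate genes Pgd was the lowest in cycling cells at -0.37 and in the remaining cells at -0.29, while the lowest in Tfh-like and Gzmb-positive cells, Tkt, had intervals that included 0. Of the 2-member arms, Pdk3 was lower in the remaining cells at -0.30, where Slc16a3 was at -0.56, Slc2a1 at -0.23 and Pfkfb3 at -0.18. There Ldhb was at -0.74 (-1.48 to -0.03) and Pfkfb4 was higher, at 1.27 (0.07 to 2.59). Ldhb was lower in cycling cells, where it had 2 UMIs in the CD45-KO and 33 in the LatY136F library.

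**Figure D2:**
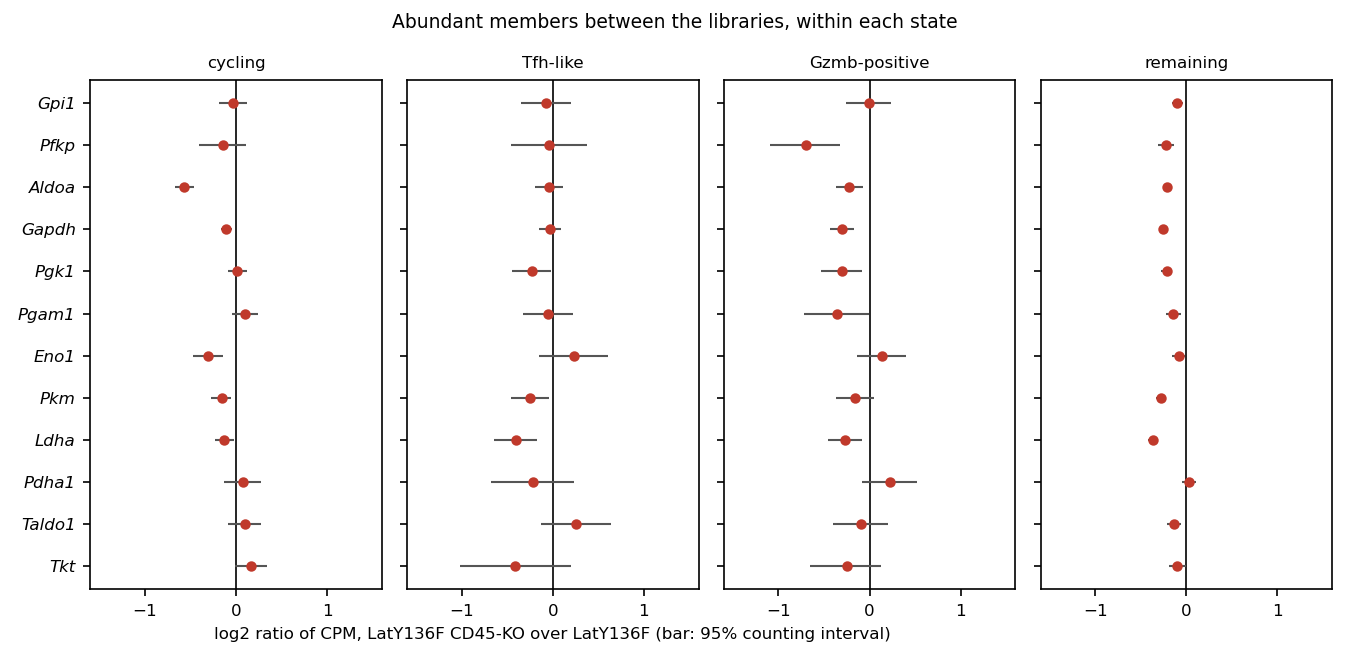
Log2 ratio of CPM, LatY136F CD45-KO over LatY136F, of the 12 members with at least 100 CPM in 1 library, in each of the 4 states, with 95% counting intervals. Points for Ldha lie left of 0 in all 4 panels, and Aldoa lies farthest left among cycling cells, at -0.57.

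Members were also compared between states inside each library. Cycling cells had a higher summed triose phase level than the remaining cells of their library, 3006 against 1361 CPM in the CD45-KO library and 3203 against 1592 CPM in the LatY136F library, log2 ratios of 1.14 (1.10 to 1.18) and 1.01 (0.98 to 1.03). Glucose transporter transcripts went the other way, 67.2 against 118.8 CPM and 78.3 against 130.8 CPM, ratios of -0.82 (-1.09 to -0.57) and -0.74 (-0.88 to -0.60). Of the 34 members past the filter in both libraries, 18 had an interval above 0 in both, against 20.9% of all genes. Another 3, Slc2a1, Slc2a3 and Pdk1, had an interval below 0 in both, against 24.4% of all genes. An interval clears 0 more readily for a gene with more UMIs, and these shares of all genes were not matched for abundance. Members higher by at least 1.5-fold numbered 16 of 35 in the CD45-KO library, against 20.8% of all genes, and 12 of 34 in the LatY136F library, against 17.6%. Members lower by that much numbered 4 and 3, against 22.9% and 21.4% of all genes. The median ratio over members was 0.49 and 0.32, against -0.07 and -0.10 over all genes.

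Tpi1 had the largest cycling difference among the abundant members, with 164 CPM in cycling cells against 61.1 CPM in the remaining cells of the CD45-KO library and 211 against 69.0 CPM in the LatY136F library. Its ratios were 1.43 (1.24 to 1.603) and 1.61 (1.502 to 1.72). Pgam1 had 289 against 109.7 CPM and 270.2 against 121 CPM, ratios of 1.40 and 1.16. Gapdh had 1569 against 667 CPM and 1690.2 against 797 CPM, ratios of 1.23 and 1.09. Pgk1 had ratios of 1.24 and 1.01 and Pkm 1.02 and 0.90. Tpi1, Gapdh, Pgk1, Pgam1, Eno1 and Pkm, which catalyse consecutive steps, were thus higher in cycling cells of both libraries. Eno1 had the smallest ratio of these, at 0.44 in the CD45-KO library and 0.67 in the LatY136F library. Eno3 had 6 and 29 UMIs in cycling cells and intervals that included 0. Ldha stood at 0.73 and 0.49.

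Upstream of them the picture was mixed. Aldoa was near its level in the remaining cells, with 475 against 512 CPM in the CD45-KO library and 704 against 593 CPM in the LatY136F library, and its ratios of -0.11 (-0.21 to -0.01) and 0.25 (0.20 to 0.30) had opposite signs. Gpi1 was slightly higher, at 0.25 and 0.19, and Pfkp had ratios of -0.19 and -0.26. Hk2 rested on few molecules, 13 UMIs in cycling CD45-KO cells and 45 in cycling LatY136F cells, with ratios of 2.86 (1.72 to 3.95) and 1.97 (1.33 to 2.62). It made up 8.28% (4.48 to 13.7) of hexokinase UMIs in cycling and 1.33% (0.802 to 2.07) in remaining CD45-KO cells, and 10.7% (7.92 to 14.1) and 2.59% (1.86 to 3.497) in LatY136F cells.

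Downstream of pyruvate, both lactate carriers were higher in cycling cells. Slc16a1 had 30.3 against 16.3 CPM in the CD45-KO library and 33.8 against 16.8 CPM in the LatY136F library, ratios of 0.89 and 1.01, and Slc16a3 had ratios of 1.25 and 1.34. The pyruvate oxidation arm was higher by less on the summed counts, at 0.35 (0.24 to 0.45) and 0.24 (0.17 to 0.31). Its most abundant member, Pdha1, had 138 against 131 CPM and 131 against 129 CPM. Gene by gene the arm did not lag, with median ratios of 0.47 and 0.36 against 0.49 and 0.32 over all members. Mpc1, Pdhb, Dlat and Dld were higher in cycling cells of both libraries. The kinases changed places: Pdk1 was lower in cycling cells, with 15.9 against 27.7 CPM and 15.1 against 27.1 CPM, and Pdk3 was higher, with 53.9 against 17.5 CPM and 45.4 against 21.6 CPM. Pdk1 made up 22.8% (16.0 to 30.8) of the pair in cycling and 61.3% (58.1 to 64.5) in remaining CD45-KO cells, and 24.9% (20.7 to 29.6) and 55.7% (52.7 to 58.7) in LatY136F cells. Among the pentose phosphate genes Tkt had the largest ratio, with 180.0 against 85.6 CPM and 161 against 91.7 CPM, ratios of 1.07 (0.90 to 1.24) and 0.81 (0.70 to 0.92). Taldo1 followed at 0.49 and 0.26, while Pgd had intervals that included 0 in both libraries and G6pdx was higher only in the CD45-KO library, at 0.62 against 0.16, a difference between libraries that was not tested.

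**Figure D3:**
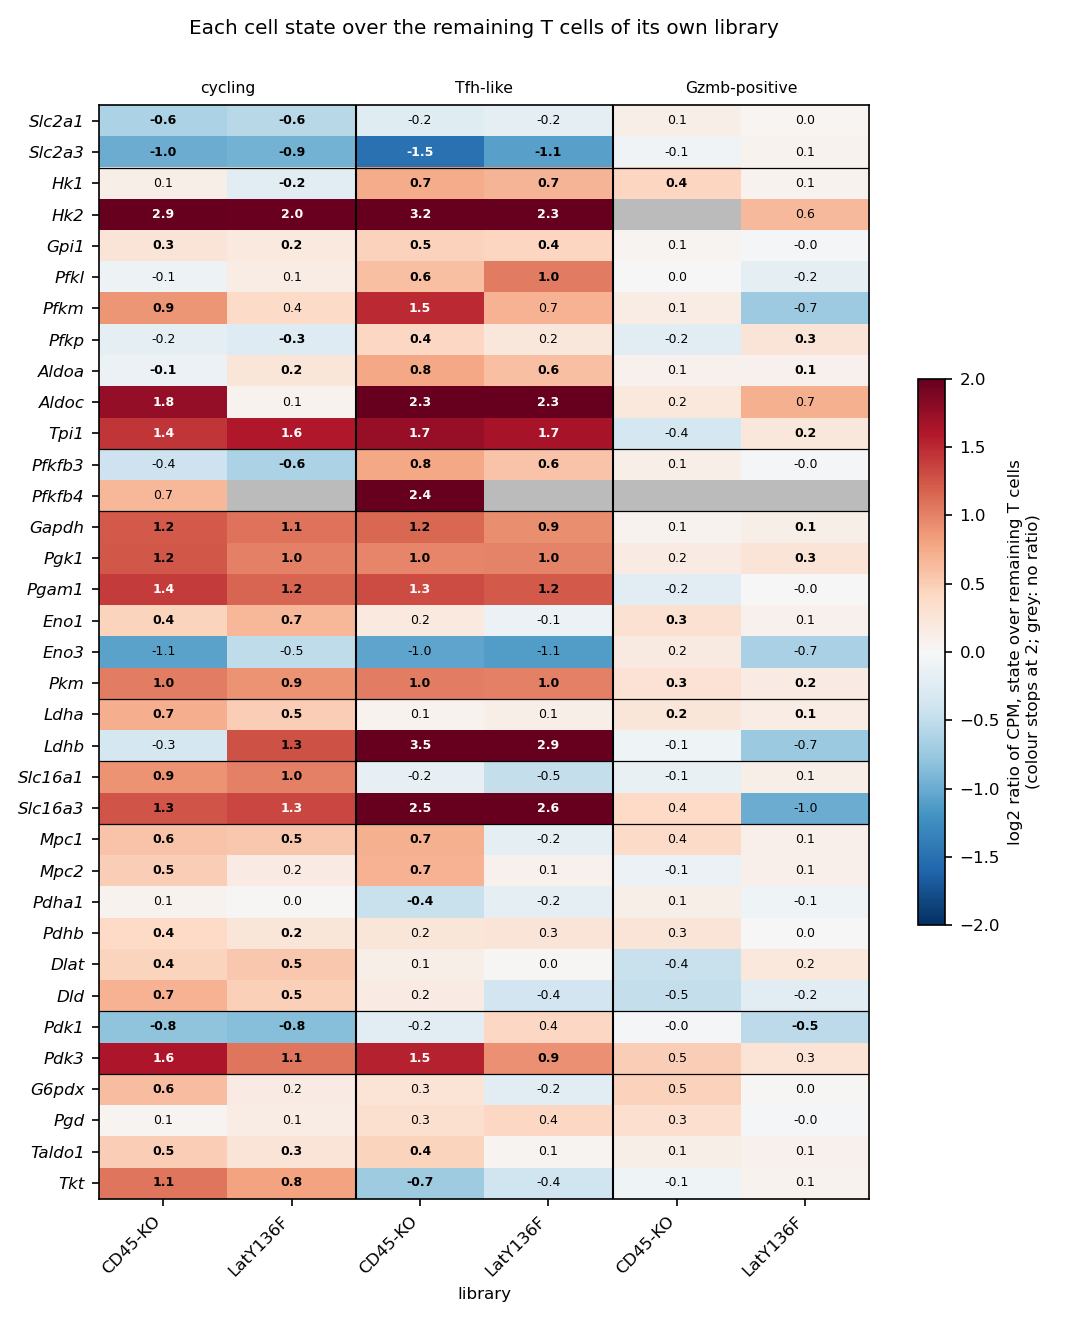
Log2 ratio of CPM of each state over the remaining T cells of the same library, for the 35 members (rows, grouped by arm) in both libraries (columns, CD45-KO left of LatY136F). Red is higher and blue lower in the state, and bold marks an interval on 1 side of 0. Grey marks a member with under 20 UMIs in the state and the remaining cells together, or with no ratio. Gapdh, Pgk1, Pgam1 and Pkm are red in cycling and Tfh-like cells, Slc2a3 is blue there, and most members are pale in Gzmb-positive cells.

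In Tfh-like cells, too, Tpi1, Gapdh, Pgk1, Pgam1 and Pkm were higher than in the remaining cells of both libraries. Tpi1 had 205 CPM in Tfh-like cells against 61.1 CPM in the remaining cells of the CD45-KO library and 217 against 69.0 CPM in the LatY136F library, ratios of 1.75 (1.52 to 1.97) and 1.65 (1.39 to 1.898). Pgam1 had ratios of 1.304 and 1.22, Gapdh 1.15 and 0.93, Pkm 1.03 and 1.00, and Pgk1 0.97 and 0.99. Eno1 was not among them, with 166 against 144 CPM and 142 against 153 CPM and intervals that included 0. Aldoa, which did not set cycling cells apart, was higher here, with 875 against 512 CPM and 898 against 593 CPM, ratios of 0.77 (0.67 to 0.87) and 0.60 (0.48 to 0.72). The first enzymes were higher too, Hk1 at 0.74 and 0.68 and Pfkl at 0.60 and 1.04, and so was the regulator Pfkfb3 at 0.78 and 0.56. Slc2a3 was lower, with 22.9 against 64.5 CPM and 31.6 against 67.1 CPM, ratios of -1.49 (-2.17 to -0.89) and -1.08 (-1.78 to -0.47).

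At the lactate end, Ldha was at the level of the remaining cells, with 319 against 303 CPM in the CD45-KO library and 423 against 391 CPM in the LatY136F library and intervals that included 0. Ldhb rested on 14 and 11 UMIs in Tfh-like cells and had ratios of 3.48 (2.44 to 4.47) and 2.93 (1.83 to 3.89). Ldha still made up 95.6% (92.8 to 97.6) of lactate dehydrogenase UMIs in Tfh-like and 99.6% (99.4 to 99.7) in remaining CD45-KO cells, and 96.2% (93.4 to 98.1) and 99.4% (99.3 to 99.6) in LatY136F cells. Slc16a3, at 15 and 17 UMIs, had ratios of 2.48 and 2.63, whereas the intervals of Slc16a1 included 0. Pdk3 was higher in Tfh-like cells as well as in cycling cells, with 51.1 against 17.5 CPM and 40.7 against 21.6 CPM. Pdk1 made up 31.9% (21.4 to 44.0) of the kinase pair in Tfh-like CD45-KO cells and 47.1% (32.9 to 61.5) in Tfh-like LatY136F cells. Tkt, the pentose phosphate gene with the largest cycling ratio, stood at 52.1 against 85.6 CPM and 69.3 against 91.7 CPM, ratios of -0.72 (-1.15 to -0.31) and -0.40 (-0.86 to 0.02). Members higher by at least 1.5-fold in Tfh-like cells numbered 18 of 35 in the CD45-KO library and 14 of 34 in the LatY136F library, against 22.3% and 21.1% of all genes. Those lower by that much numbered 3 and 2, against 15.3% and 14.5%. The median ratio was 0.60 and 0.41, against 0.07 and 0.05 over all genes, and 15 of 34 members had an interval above 0 in both libraries, against 11.8% of all genes. Slc2a3 was the 1 member with an interval below 0 in both, against 8.36%. As for cycling cells, these shares of intervals over all genes were not matched for abundance.

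**Figure D4:**
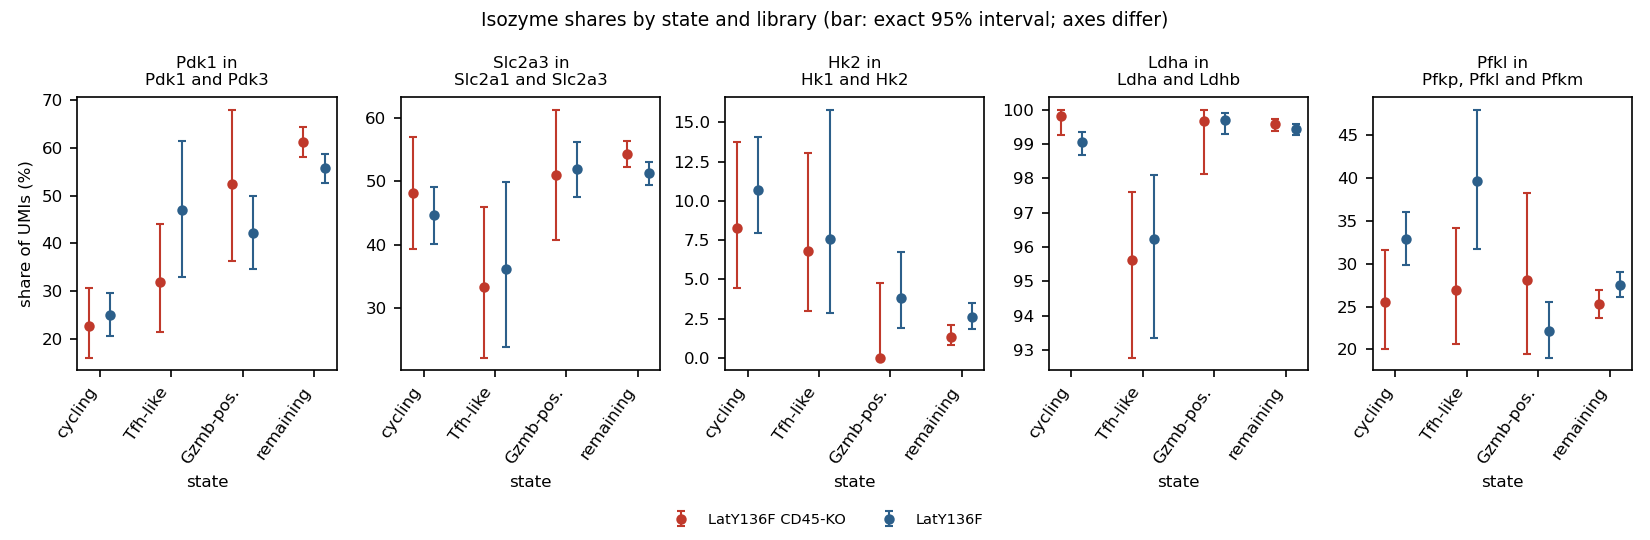
Share of UMIs (%) taken by 1 isozyme in its pair or family, by state, with exact 95% intervals, CD45-KO left of LatY136F at each state. The Pdk1 share is lowest in cycling cells of both libraries, at 22.8% and 24.9%, and the Ldha share is lowest in Tfh-like cells, at 95.6% and 96.2%.

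Gzmb-positive cells lay close to the remaining cells. Pkm and Ldha were the 2 members higher in Gzmb-positive cells of both libraries (6.06% of 33 members, against 1.61% of all genes, with 0 lower in both, against 1.5%), with Pkm at 0.29 and 0.17 and Ldha at 0.24 and 0.14. Pkm and Ldha both had at least 100 CPM, and the share of all genes was not matched for abundance. The 6.06% was therefore not read as an excess. The median ratio over members was 0.12 and 0.07, against -0.03 and -0.02 over all genes. The CD45-KO and LatY136F Gzmb-positive cells were unlike in number and in their cytotoxic markers, which summed to 1068 CPM in the CD45-KO cells and 432 CPM in the LatY136F cells, and the part of this in the library ratios within that state was not tested.

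Levels were also read per cell after each cell with at least 1000 UMIs was thinned to 1000 UMIs. This made the depth of the counts equal, while the states were still gated at full depth. Triose phase and lactate dehydrogenase transcripts averaged 3.11 UMIs (2.90 to 3.32) in cycling, 2.90 (2.70 to 3.11) in Tfh-like and 1.63 (1.604 to 1.65) in remaining cells of the CD45-KO library. In the LatY136F library they averaged 3.28 (3.17 to 3.39), 3.20 (2.95 to 3.46) and 1.93 (1.898 to 1.95). Cycling and Tfh-like cells thus stood above the remaining cells in both libraries. The intervals of cycling and Tfh-like cells overlapped, and no order between these states was read. Before thinning the means were 24.4 UMIs in cycling and 3.40 in remaining CD45-KO cells, and 23.6 and 4.33 in LatY136F cells. No UMI of these genes was seen in 7.5% of thinned cycling and 21.05% of thinned remaining CD45-KO cells, and in 6.71% and 15.4% of LatY136F cells. The hexose phase averaged 1.57 UMIs in Tfh-like cells of the CD45-KO library, where cycling and remaining cells, at 0.961 (0.849 to 1.08) and 0.953 (0.934 to 0.973), had overlapping intervals under or around 1 UMI, and 1.75, 1.29 and 1.09 in LatY136F cells. Pentose phosphate and pyruvate oxidation transcripts averaged under 1 UMI per thinned cell in each of these states, and no order was read from them.

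**Figure D5:**
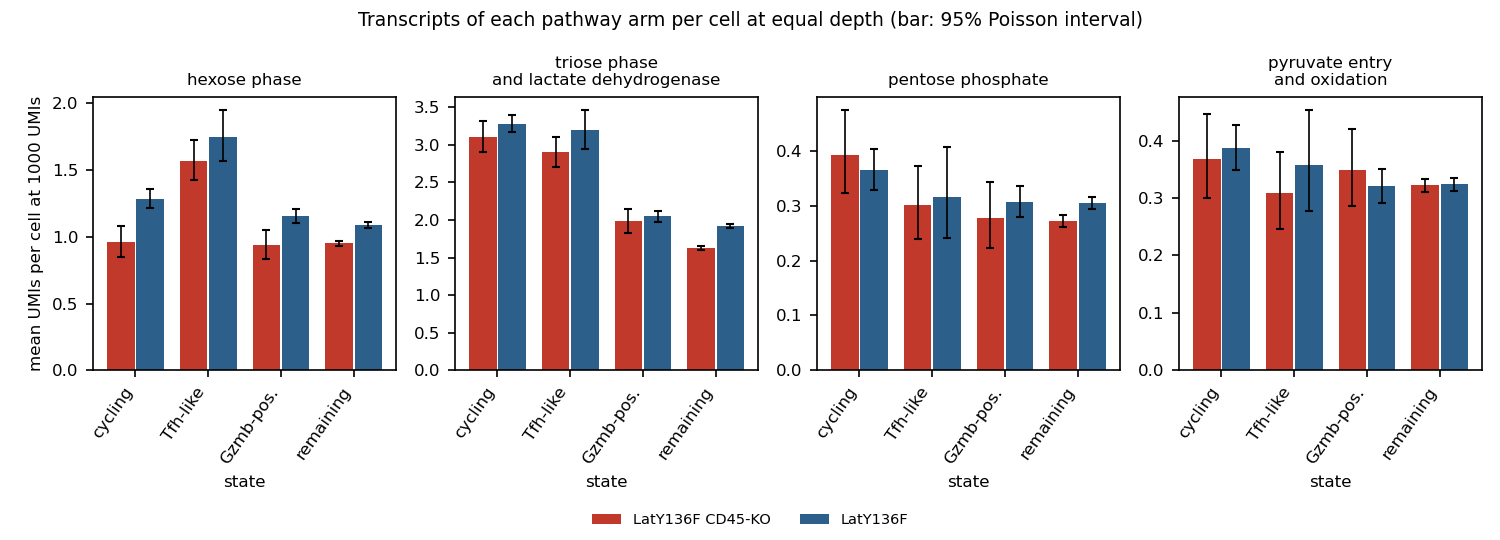
Mean UMIs per cell of 4 groups of members after thinning to 1000 UMIs, by state, with 95% Poisson intervals, CD45-KO bars left of LatY136F bars. Triose phase and lactate dehydrogenase bars reach 3.11 and 3.28 in cycling cells, against 1.63 and 1.93 in the remaining cells, and hexose phase bars are tallest in Tfh-like cells.

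Genes around the pathway were read from further lists. Over all T cells, of 12 other glycolysis genes past the filter 2 were lower and 1 was higher by at least 1.5-fold in the CD45-KO library, against the 8.7% and 8.92% of all genes given above, with a median ratio of -0.07. The lower ones were Eno1b and Slc2a6, a glucose transporter, and the higher one was the neuronal enolase Eno2, with 88 UMIs in CD45-KO cells and 12 in LatY136F cells; Slc2a6 and Eno2 are named because their values were large. Eno1b, the copy of Eno1, was at -0.59, and Pgm2 was at -0.36 with 39.4 CPM in CD45-KO cells and 50.6 CPM in LatY136F cells. Tigar, a fructose bisphosphatase, was at 0.27, and Adpgk, an ADP-dependent glucokinase, at 0.23. None of the 6 other pyruvate dehydrogenase genes and none of the 9 other pentose phosphate genes passed 1.5-fold, and the medians were 0.0001 and -0.004. Of the pair that makes phosphoribosyl pyrophosphate from pentose phosphate, Prps1 had 53.9 and 67.1 CPM and a ratio of -0.32, and Prps2 had 107 and 86.8 CPM and a ratio of 0.31. Rpia, ribose-5-phosphate isomerase, was at -0.19.

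Of 20 tricarboxylic acid cycle genes, 1 was lower by at least 1.5-fold in the CD45-KO library and none was higher, against the same 8.7% and 8.92% of all genes. The ratio was below 0 for 18 of the 20, against 46.1% of all genes, with a median of -0.14, which was -0.054 with the mix of states held equal. Idh2, the mitochondrial NADP-dependent isocitrate dehydrogenase, had 13.8 CPM in CD45-KO cells and 23.3 CPM in LatY136F cells, a ratio of -0.76 (-0.93 to -0.58). Sdhd and Sdhb, of succinate dehydrogenase, were at -0.38 and -0.30, and Cs, citrate synthase, at -0.25. Of 21 genes of hypoxia-inducible factor and its targets outside glycolysis, 4 were lower and 1 higher by that much, against 8.7% and 8.92%, with a median of -0.02. The lower ones were Egln3, Ndrg1, Ankrd37 and Ak4 and the higher one P4ha2, of which Ankrd37, Ak4 and P4ha2 are named to complete the count; Ak4 and P4ha2 had intervals that included 0. Egln3, a prolyl hydroxylase, had 1006 UMIs in CD45-KO cells and 2331 in LatY136F cells and a ratio of -0.92, and Ndrg1 had 51.6 and 89.6 CPM and a ratio of -0.80. P4hb, a subunit of collagen prolyl hydroxylase, was at -0.43 and Kdm3a, a histone demethylase, at -0.13. In Tfh-like cells 10 and 8 of 19 genes of this list were higher by at least 1.5-fold than in the remaining cells, against 22.3% and 21.1% of all genes, with medians of 0.60 in the CD45-KO library and 0.37 in the LatY136F library, against 0.07 and 0.05 over all genes. In cycling cells 8 and 5 of the 20 tricarboxylic acid cycle genes were higher by at least 1.5-fold, against 20.8% and 17.6% of all genes. None was lower by that much, against 22.9% and 21.4%. Their medians were 0.49 and 0.40, near the 0.49 and 0.32 of the members, so the cycling rise was not particular to the members. The list around Myc, mTORC1 and glucose sensing had cycling medians of -0.37 and -0.37. Of 21 genes around Myc, mTORC1 and glucose sensing, 1 was lower and 2 were higher by that much in the CD45-KO library, shares near or under the 8.7% and 8.92% of all genes, with a median of 0.16. The higher ones were Myc and, on 160 and 100 UMIs, Arrdc4, named to complete the count. Myc itself had 68.1 CPM in CD45-KO cells and 34.6 CPM in LatY136F cells, a ratio of 0.98 (0.87 to 1.08), while Slc1a5, the glutamine carrier ASCT2, had 183 and 283 CPM and a ratio of -0.63 (-0.67 to -0.58). Mlxip, which encodes the glucose-sensing factor MondoA, was at 0.43 and Prkaa1, a catalytic subunit of AMP-activated kinase, at 0.41.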

How the data were processed

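Counts of molecules per cell and gene were deposited by the authors for 2 libraries, with UMI errors corrected by their pipeline and no scaling. The software was, per the file headers, the BD WTA Multiplex Rhapsody Analysis Pipeline 1.9.1 on GRCm38 with GENCODE M19; the design text names version 2.0 and the submitters' processing notes name GRCm39, and the headers were followed. The antibodies listed include CD4, and the sources used here do not say whether CD4 was gated. Sample tags were not used. A gene absent from 1 file was given a count of 0 there.

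Cells with at least 200 genes, at most 25% mitochondrial counts and under 3 UMIs of 16 markers of other cell types were kept, and doublets were not removed. UMIs were summed per library and state and scaled to CPM; ratios carry exact conditional binomial intervals, shares Clopper-Pearson intervals. Against 0 counts, 3 counts served as the floor, and no ratio was given where that floor lay above the other side. Cells of 1 gate on transcripts were set apart, and their values are not reported here. Thinning used random seed 1. Near-identical copies were found with minimap2 2.31-r1302 on GENCODE M21 transcripts at 95% identity or more over at least 300 bases; Pfkp overlaps Pitrm1, Pdha1 overlaps Map3k15, and the symbol Aldoa belongs to 2 adjoining gene IDs. The ratio was tested on simulated counts. Members, gene lists and gates were chosen with earlier results of these data known. The text names all members between libraries, the highest and lowest of each arm inside states and, of each other list, up to 4 genes with the largest ratio and at least 20 CPM. Ldha, Pfkl, Pfkp, Aldoa, Gapdh and Dld inside states, and the members described between states, were chosen after their values were seen. Calculations used Python 3.11.15, numpy 2.4.6 and scipy 1.17.1.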

Additional observations from a re-analysis of the deposited data

Results flagged for a closer look

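For Aldoa the direction was opposite between the libraries, with counting intervals on both sides of 0. Its level in cycling cells over the remaining cells had a log2 ratio of -0.11 (-0.21 to -0.01) in the CD45-KO library and 0.25 (0.20 to 0.30) in the LatY136F library. The difference itself was not tested.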

How the results depend on the processing

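With 1 library per genotype no replicate could be left out. No paired analysis was possible, because each genotype had 1 library and the labels give no pairing. The median ratio of members between libraries lay between -0.20 and -0.10 over 8 alternatives, and the count of members below 0 was 28 of 35 under each filter and scaling tried. Cycling medians over the remaining cells lay between 0.46 and 0.57 in the CD45-KO library and between 0.26 and 0.40 in the LatY136F library, and Tfh-like medians between 0.48 and 0.75 and between 0.26 and 0.55. The median of Tfh-like cells between libraries ran from -0.36 with stricter gates to 0.01 with at most 10% mitochondrial counts. With the mix of states held equal, 2 members were lower by 1.5-fold and the tricarboxylic acid cycle median was -0.054. With gates read at 1000 UMIs, 5 members were lower in cycling and 1 in Tfh-like LatY136F cells. The Tfh-like count was also 1 with stricter gates and was 4 with at most 10% mitochondrial counts. Shares over all genes are not given for these settings, so these counts of members were not read as results about the members. That mitochondrial limit gave CD45-KO shares of 72.5% for Pfkp, 23.5% for Pfkl and 53.5% for Pdk1, per-cell means of 0.994 (hexose phase) and 1.72 (triose phase and lactate dehydrogenase) in CD45-KO cells, and 0.322 (pentose phosphate) in LatY136F cells. Thinning to 500 UMIs, times 2, gave 1.09 (hexose phase) and 0.321 (pentose phosphate) in LatY136F cells. Causes were not tested. Summing the copies of Eno1 and Gapdh was chosen after seeing the data. Members under 20 CPM rest on few molecules, and their intervals are wide.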
